A study of Mus musculus with 2 samples.

Results

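Described here are 8 genes that encode surface proteins used to sort thymic epithelial cells or to mark their progenitors and subsets: Epcam, Ly75, Cd83, Cd24a, Cd9, Ly6d, Plet1 and Prom1. They were chosen by symbol among the 25791 genes of the files, and all 8 were found, Plet1 under its older symbol 1600029D21Rik. Fetal thymus was taken at 15 days post coitum, and RNA-seq libraries were made from its epithelial cells after a sort that kept EpCAM+ cells and removed those with CD45, the leukocyte marker, or PDGFRa, a mesenchymal marker. The library titled B6J came from the strain C57BL/6 and the library titled humanCD3eTg from the strain C57BL/6J x CBA/J, with 1 library for each. The study compared thymic epithelium with and without developing thymocytes. The series is titled for a mesenchymal network formed once the exchange of signals with thymocytes is abrogated. The sources used here do not state how many mice each library pooled or which promoter drives the transgene. Strain and transgene differ together, so they cannot be told apart.

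The treatment labels name thymocytes as absent for B6J and present for humanCD3eTg, whereas mice carrying human CD3E at high copy number are known for a block in T cell development. Summed over 16 thymocyte genes, the level was 201.4 FPKM in B6J and 14.1 in humanCD3eTg, against the labels. FPKM counts the fragments of a gene relative to the length of its transcript and to all mapped fragments of the library. The groups are therefore called by the titles of the libraries. With 1 library per group no test could be made and no spread between mice is known.

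EpCAM is an adhesion protein of epithelial cells and is the usual handle by which thymic epithelium is separated from stroma. CD205, encoded by Ly75, is an endocytic receptor of cortical epithelium and dendritic cells, and CD83 is a membrane protein known to keep MHC class II at the surface of thymic epithelium. Plet1 encodes the antigen of antibodies that have been used to define fetal thymic epithelial progenitors, and Ly6d, Cd24a, Cd9 and Prom1 serve as markers of progenitors or subsets in several epithelia.

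The promoters of 4 of these genes are shown because they stand for both directions of difference: Epcam, Cd9 and Plet1 were higher in humanCD3eTg and Ly75 was lower. Each is the 250 bases before the RefSeq gene start, on build GRCm38.p6 and not on the mm9 build of the files. The strand is + for Epcam and Plet1 and - for Cd9 and Ly75. The windows are chr17:87635729-87635978, chr6:125494761-125495010, chr9:50494275-50494524 and chr2:60383274-60383523, in the order printed. Capitals mark matches to the motifs named below.
Epcam: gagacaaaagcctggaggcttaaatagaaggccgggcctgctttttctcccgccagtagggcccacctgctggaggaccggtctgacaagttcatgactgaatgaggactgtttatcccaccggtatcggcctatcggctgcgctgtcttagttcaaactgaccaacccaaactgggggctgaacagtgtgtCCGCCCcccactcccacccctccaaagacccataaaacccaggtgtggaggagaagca
Cd9: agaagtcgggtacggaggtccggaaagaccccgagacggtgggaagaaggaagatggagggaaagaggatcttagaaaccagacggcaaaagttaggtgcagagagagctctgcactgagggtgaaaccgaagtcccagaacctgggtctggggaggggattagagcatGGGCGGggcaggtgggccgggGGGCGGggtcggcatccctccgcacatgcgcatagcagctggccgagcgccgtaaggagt
Plet1: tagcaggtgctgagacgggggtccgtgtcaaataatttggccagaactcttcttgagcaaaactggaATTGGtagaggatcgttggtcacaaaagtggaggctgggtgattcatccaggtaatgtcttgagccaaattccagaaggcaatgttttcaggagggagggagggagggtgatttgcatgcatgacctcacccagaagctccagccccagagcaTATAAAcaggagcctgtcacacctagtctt
Ly75: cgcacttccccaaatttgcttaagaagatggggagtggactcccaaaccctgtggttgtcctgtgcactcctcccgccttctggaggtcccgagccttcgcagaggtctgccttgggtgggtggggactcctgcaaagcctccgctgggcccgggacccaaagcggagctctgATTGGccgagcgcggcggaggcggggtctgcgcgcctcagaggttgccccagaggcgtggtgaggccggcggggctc

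Each window was searched on both strands for 6 motifs, and none of the marked matches overlap. RefSeq promoters were matched for 5 of the 8 genes, Epcam, Ly75, Cd9, Plet1 and Prom1. The TATA box, TATAAA, was found only in Plet1 among these, 30 bases before the start, and 12.4% of 32851 mouse promoter windows of the same length hold one. The GC box was searched as GGGCGG. The Cd9 window holds GC boxes starting 81 and 60 bases before the start, Epcam holds 1 at 58 bases and Prom1 holds 1 at 62 bases; 32.7% of all windows hold a GC box. The CCAAT box, searched by those letters, lay 77 bases before the start of Ly75, 183 bases before that of Plet1 and 35 bases before that of Prom1, against 33.8% of all windows. The core bound by FOXN1, the master regulator of thymic epithelium, was searched as GACGC. It is present in 22.6% of all windows and was found in 1 of 2 Prom1 windows and in none of the 4 printed. The E-box CACGTG (6.02% of all windows) was found in none of the windows of the 5 genes, and neither was the NF-kB site by its usual consensus (7.25%). The GC content was 66.8% for Ly75, 61.6% for Cd9, 56.4% for Epcam and 50% for Plet1, beside a median of 52.4% over all windows. These are matches of letters, and binding was not measured.

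All 8 genes reached a mean of 1 FPKM, the limit above which 13493 genes were used. On FPKM + 1, where 2-fold means a log2 ratio of 1 or more, or of -1 or less, 1 of 8 differed by 2-fold (Ly6d, higher in humanCD3eTg), and 6.57% of all genes used did so (2.1% higher, 4.47% lower). Of the 8 genes, 5 were higher in humanCD3eTg by any amount and 3 were lower; of all genes used, 44.6% were higher and 55.4% lower. Their median log2 ratio was 0.45, beside -0.05 over all genes used. At 1.5-fold the count was 4 of 8, with Cd9, Ly6d and Plet1 higher and Cd83 lower, beside 16.9% of all genes used (5.95% higher, 10.9% lower).

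The order of levels was nearly the same in both libraries. Epcam stood first, followed by Cd24a and Cd9, then Cd83 and Ly75, then Plet1, Ly6d and Prom1. Cd83 and Ly75 changed places, at a ratio of 1.07 in B6J and 0.904 in humanCD3eTg. The 5 upper genes were among the abundant genes of their library, with Epcam ranked 582 and 467 of 25791 genes and Cd83, the lowest of these in humanCD3eTg, ranked 2241. The gap between the upper and lower genes was 6.31-fold in B6J (Ly75 over Plet1) and 2.67-fold in humanCD3eTg (Cd83 over Plet1). The highest gene was 76.1 times the lowest in B6J and 119.7 times in humanCD3eTg. Without replicates, no pair of neighbours can be set against a spread, and Cd83 and Ly75 differed least in both libraries.

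**Figure D1:**
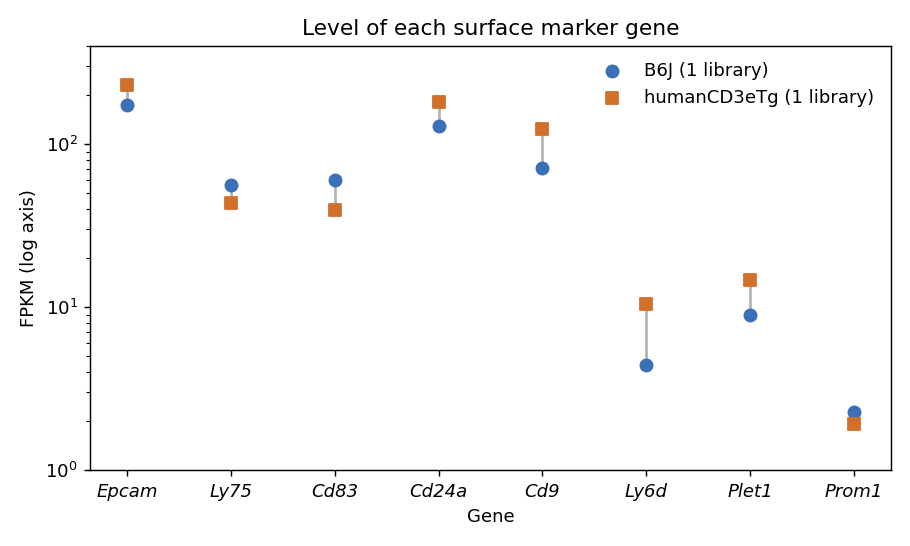
FPKM of each of the 8 genes on a log axis, with 1 point per library (circles B6J, squares humanCD3eTg) and no error bars because there is 1 library per group. Epcam is highest in both, at 173.5 and 231.4 FPKM, and Prom1 lowest, at 2.28 and 1.93 FPKM.

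Epcam, whose protein was used to select the cells, had 173.5 FPKM in B6J and 231.4 FPKM in humanCD3eTg. It was 1.33-fold higher in humanCD3eTg, with a 95% interval of 1.29 to 1.38 (exact binomial). This and the intervals that follow rest on an estimated depth of about 20100000 fragments in B6J and 15800000 in humanCD3eTg, treat fragments as independent molecules, and cover counting error only. Of all genes used, 28.3% differed by at least as much. In these bulk samples a lower share of cells of a type and less RNA per cell cannot be told apart. The genes of the negative gates were low: Ptprc, which encodes CD45, at 4.18 and 0.358 FPKM, and Pdgfra at 0.676 and 0.348.

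Cd24a encodes a small sialoglycoprotein anchored in the membrane by a lipid, found on immature thymocytes, red cell precursors and many epithelia. It had 128.5 FPKM in B6J and 181.2 FPKM in humanCD3eTg, 1.41-fold higher (1.35 to 1.47). Measured against Epcam in the same library it was 74.1% and 78.3%. Thymocyte genes summed to 201.4 FPKM in B6J and 14.1 in humanCD3eTg. Erythroid genes summed to 1634 and 992.0 FPKM, most of it from the haemoglobin genes Hba-a2 and Hbb-b1, and over all 9 found 5 were lower and 4 higher, among the latter Hbb-y (2.53 and 8.51 FPKM) and Klf1 (0.375 and 1.14). GENCODE holds 2 other genes that share at least 90% of bases with the Cd24a transcript over 228 and 258 bases, so its level is uncertain to that extent.

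Cd9, a tetraspanin that gathers integrins and other membrane proteins into clusters, stood at 71.0 and 123.5 FPKM. It was 1.74-fold higher in humanCD3eTg (1.62 to 1.86), and 10.0% of all genes used differed by at least as much on FPKM + 1. Relative to Epcam its level was 40.9% in B6J and 53.4% in humanCD3eTg. A pseudogene, Cd9-ps, shares 90.7% of bases with it over 664 bases, and Gm26728 is identical to it over 218 bases, so reads may be shared.

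Plet1 had 8.91 FPKM in B6J and 14.7 FPKM in humanCD3eTg, 1.65-fold higher (1.40 to 1.94), from an estimated 265 and 344 fragments. Relative to Epcam it was 5.14% and 6.34%. An RNA named as antisense to it in GENCODE, Plet1os, shares 187 bases, and use of strand in counting is not given in the sources used here.

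Ly6d, a lipid-anchored protein of the Ly6 family known from keratinocytes and early B lineage cells, had 4.41 FPKM in B6J and 10.5 FPKM in humanCD3eTg. This is 2.38-fold in plain FPKM and 1.09 as a log2 ratio on FPKM + 1. Of all genes used, 5.69% differed by at least as much. The value is the least precise of the 5 higher genes, at an estimated 47 and 89 fragments and an interval of 1.67 to 3.50, which reaches below 2-fold. With a pseudocount of 5 FPKM the log2 ratio was 0.72, and rescaled to Epcam in plain FPKM it was 0.84, both short of 2-fold. Of 8 B cell genes, 4 were used and all 4 were lower in humanCD3eTg, as were 55.4% of all genes used. The summed level of the 8 genes was 15.6 and 9.57 FPKM, with Vpreb1 listed at 0 in humanCD3eTg.

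Ly75 and Cd83 were lower in humanCD3eTg. Ly75 had 56.2 FPKM in B6J and 43.4 FPKM in humanCD3eTg, a ratio of 0.772 (0.739 to 0.805), and Gm13571 shares 181 bases with it at 99.4% identity. Cd83 stood at 60.3 and 39.2 FPKM, a ratio of 0.650 (0.609 to 0.693), and 15.8% of all genes used differed by at least as much. Rescaled to Epcam in plain FPKM its log2 ratio was -1.04, past 2-fold, as were 16.6% of all genes used on that scale. Relative to Epcam, Ly75 was 32.4% in B6J and 18.7% in humanCD3eTg, and Cd83 was 34.7% and 16.9%. The ratio of Cd9 to Cd83 thus went from 1.18 in B6J to 3.15 in humanCD3eTg. Both genes are also known from dendritic cells. Over 12 dendritic cell and macrophage genes the summed level was 24.4 FPKM in B6J and 19.3 in humanCD3eTg, and of 5 genes used 3 were lower, 2 of them by 2-fold, and 2 higher, 1 by 2-fold. The lower genes were Mpeg1 (3.26 and 0.519 FPKM), Ctss (3.73 and 0.877) and Lyz2 (11.0 and 8.80), and the higher genes were C1qb (0.524 and 2.13) and Cd68 (4.04 and 5.33). Among all genes used, 55.4% were lower, 4.47% by 2-fold, and 44.6% were higher, 2.1% by 2-fold. Clec9a was listed at 0 in both libraries. Siglech was listed at 0 in humanCD3eTg and stood at 0.00127 FPKM in B6J, just above the limit of 0.001.

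Prom1, which encodes CD133, a glycoprotein of membrane protrusions, stood at 2.28 and 1.93 FPKM. The ratio of 0.848 had an interval of 0.623 to 1.15, so a difference was not detectable at this depth, with an estimated 109 and 73 fragments on the shortest of its 7 RefSeq-matched transcripts. Of all genes used, 64.5% differed by at least as much.

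**Figure D2:**
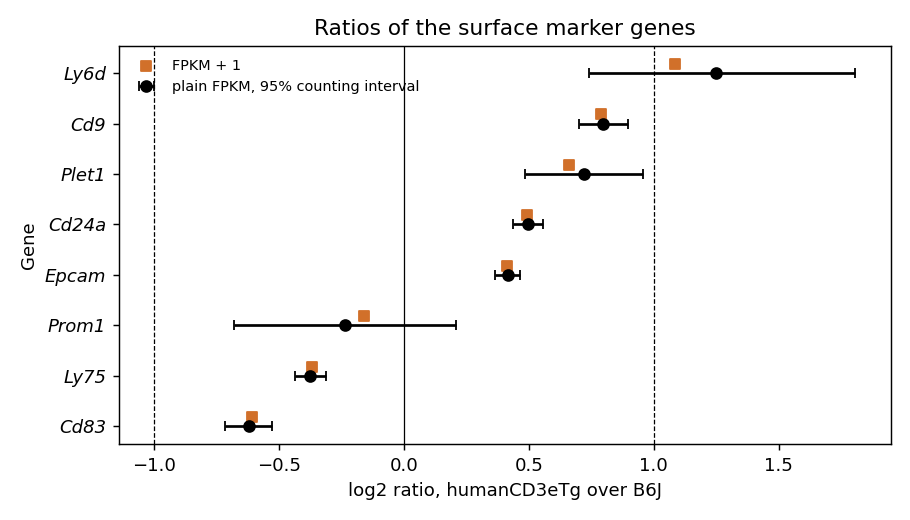
Log2 ratio of humanCD3eTg over B6J for each gene, in plain FPKM (circles, with 95% counting intervals at the estimated depth) and on FPKM + 1 (squares); dashed lines mark 2-fold. The interval of Prom1 spans 0, those of the other 7 genes do not, and Ly6d lies past the 2-fold line.

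**Figure D3:**
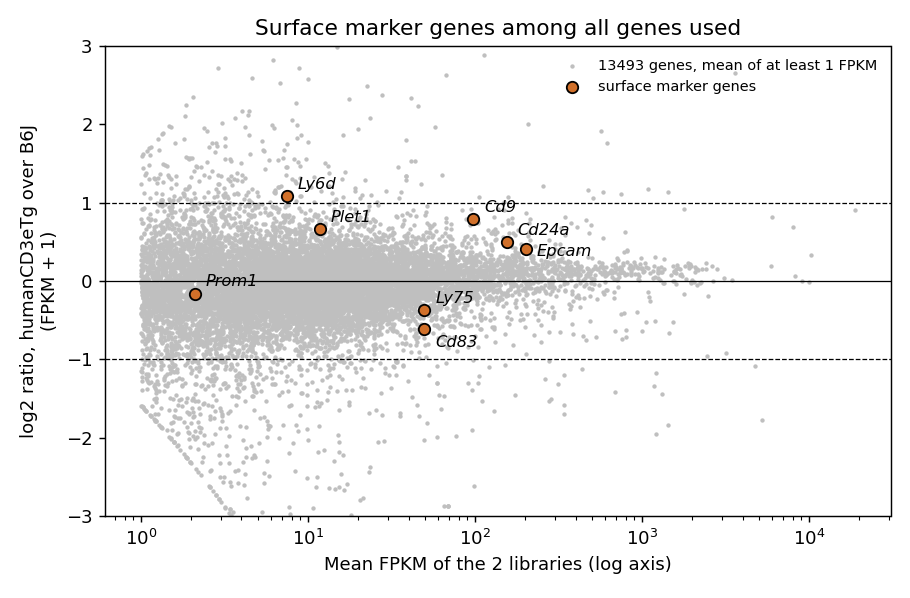
Log2 ratio of humanCD3eTg over B6J (FPKM + 1) against the mean FPKM (log axis) for 13493 genes in grey and the 8 surface marker genes in colour; dashed lines mark 2-fold, and 98 genes lie beyond the axis limits of -3 and 3. Ly6d sits just above the upper line and the other 7 lie between the lines.

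The spread of ratios narrows toward high levels, so each gene was also set beside the genes with a mean within 2-fold of its own. Of 697 genes of a level like that of Epcam, 18.7% differed by at least as much, and of 887 genes like Cd24a 13.5% did. The share was 5.89% of 1341 genes for Cd9, 8.63% of 2409 for Cd83 and 22.1% of 2408 for Ly75. For Ly6d it was 4.59% of 5120 genes, for Plet1 9.75% of 5210 and for Prom1 75.6% of 3482. By this share Ly6d and Cd9 stood farthest out and Prom1 least. This comparison was added after the values were seen and describes these 2 libraries only.

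Markers of other cell types also differed between the libraries, in both directions. Among all genes used, 55.4% were lower in humanCD3eTg and 44.6% higher. Thymocyte genes were lower in humanCD3eTg in 13 of 13 cases used, with Cd3g, Cd3d, Rag2 and Cd4 listed at 0 there and Cd8a in B6J. Endothelial genes were also lower (11 of 11, summed 67.8 and 19.9 FPKM over 12 genes, none listed at 0). So were pan-haematopoietic genes (11 of 11, summed 198.3 and 73.6 FPKM over 12, none listed at 0). Of the latter sums, Arhgdib alone gave 117.4 and 64.9 FPKM. Erythroid genes were lower in 4 of 5 cases used, with none listed at 0. Genes of neural crest, pigment cells and glia were higher in 10 of 10 cases, summed at 12.3 and 173.8 FPKM over 12 genes, with Mlana listed at 0 in B6J and Tyrp1 in both. Mesenchymal genes were mixed, 3 of 9 higher and summed at 220.0 and 236.7 FPKM over 10 genes, none listed at 0. Pth, the parathyroid hormone gene, was at 679.1 and 875.1 FPKM, and 3 of 4 parathyroid genes were higher (summed 947.3 and 1187 FPKM, none listed at 0). The part of these cells in the levels of the 8 genes was not tested.

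Other surface genes used to sort or subdivide thymic epithelium were mostly lower in humanCD3eTg, 11 of 14 used (median log2 ratio -0.53). By 2-fold or more, 3 were lower and 1 was higher. Among all genes used, 55.4% were lower, 4.47% were 2-fold lower and 2.1% were 2-fold higher. Cd40, a TNF receptor family member, stood at 20.1 and 2.40 FPKM, and Ly6a, which encodes the stem cell antigen Sca-1, at 1.98 and 0.413. Cd80, a ligand of T cell costimulation, was listed at 0 in humanCD3eTg and at 2.30 FPKM in B6J. Among the 3 higher genes were Cldn3 and Cldn4. These genes, which encode tight junction proteins, were measured at 5.49 and 12.7 FPKM and at 143.5 and 262.1 FPKM, respectively. Cldn4, the highest of this list, thus lay above Epcam in humanCD3eTg and below it in B6J. Over 15 thymic epithelial identity genes the median was -0.13, with 4 higher, 1 of them by 2-fold, and 11 lower, 2 of them by 2-fold. Krt5, a keratin of basal epithelia, had a log2 ratio of 1.77 (280.2 and 955.5 FPKM). Krt14, its usual partner, had -1.25 (22.9 and 9.05 FPKM) and Foxn1 -1.04 (91.1 and 43.7 FPKM). Krt18 and Krt8, keratins of simple epithelia and the highest of the list, had levels of 2656 and 2951 FPKM and of 2183 and 2103 FPKM.

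Relatives and partners of EpCAM did not share one direction. Of 13 used, 5 were higher and 8 lower, none by 2-fold (median -0.10). Among all genes used, 44.6% were higher and 55.4% lower, and 6.57% differed by 2-fold. Cldn1, another tight junction gene, stood at 2.34 and 5.39 FPKM, a log2 ratio of 0.94. Spint1, an inhibitor of membrane serine proteases, stood lower at 39.2 and 25.0 FPKM (-0.63), as did Spint2, its relative, at 152.2 and 100.9 FPKM. Cdh1, which encodes E-cadherin, stood at 129.2 and 120.3 FPKM.

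Most tetraspanins and CD9 partners were lower, 13 of 17, with 2 at least 2-fold lower (median -0.17), while Cd9 itself was higher. Among all genes used, 55.4% were lower and 4.47% at least 2-fold lower. Cd63, a tetraspanin of endosomes, was the one most like Epcam of 81 related genes and stood at 165.7 and 256.1 FPKM (0.63). Cd82 stood at 50.6 and 23.4 FPKM (-1.08) and Cd53, a tetraspanin of leukocytes, at 2.92 and 0.121 FPKM (-1.81). Tspan14, which escorts the protease ADAM10, stood at 57.2 and 34.4 FPKM and was the related gene most like Cd83. Likeness was the distance of log2(FPKM + 1) over the 2 libraries, 0.16 for Cd63 and Epcam and 0.20 for Tspan14 and Cd83, and 12 and 27 of all genes used lay nearer to these members.

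In the Ly6 family, 11 of 20 genes were used, of which 2 were higher and 3 lower by 2-fold or more (median -0.17). The shares of all genes used were 2.1% higher and 4.47% lower by 2-fold. Cd59a, an inhibitor of complement, and Lypd3, a Ly6-type protein of keratinocytes, stood higher at 1.51 and 5.17 FPKM (1.30) and at 2.87 and 7.21 FPKM (1.08). Ly6h stood lower at 27.0 and 9.69 FPKM (-1.39), and Gpihbp1, known from capillary endothelium, was listed at 0 in humanCD3eTg and at 5.39 FPKM in B6J. Ly6e had the highest level of the family, at 240.8 and 218.5 FPKM. Cldn3 was the related gene most like Ly6d (distance 0.37, with 67 of all genes used nearer).

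Prom2, the relative of Prom1, stood at 2.13 and 4.62 FPKM (0.85). It lay above Prom1 in humanCD3eTg (Prom1 at 1.93 FPKM). In B6J the pair lay close (Prom1 at 2.28 FPKM), so their order there is uncertain. Of the 7 prominin relatives and microvillus genes 5 were lower, 1 of them by 2-fold (median -0.13). The shares of all genes used were 55.4% lower and 4.47% lower by 2-fold. Ezr, which encodes ezrin, a linker of membrane and actin, stood at 94.0 and 102.2 FPKM, and Msn, which encodes its relative moesin, at 19.2 and 10.3 FPKM (-0.84). In the mannose receptor family, to which CD205 belongs, Mrc2 stood at 5.09 and 4.03 FPKM. Cd302, which lies next to Ly75 in RefSeq, stood higher in humanCD3eTg at 1.19 and 3.59 FPKM (1.07), in the direction opposite to Ly75.

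CD83 is known to oppose the ubiquitin ligase MARCH8, which removes MHC class II from the surface. March8 stood at 5.64 and 6.14 FPKM (0.10). The class II chains H2-Ab1 and H2-Aa stood far lower in humanCD3eTg, with log2 ratios of -3.33 and -3.13 beside -0.61 for Cd83. Of the 4 genes used in this list 3 were at least 2-fold lower, H2-Ab1, H2-Aa and Cd80 (median -2.43), beside 4.47% of all genes used. C57BL/6 and CBA/J differ at the MHC, and which MHC haplotype the humanCD3eTg mice of this cross carried was not examined. The part of strain in the class II levels was not tested and cannot be told apart from that of the transgene.

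**Figure D4:**
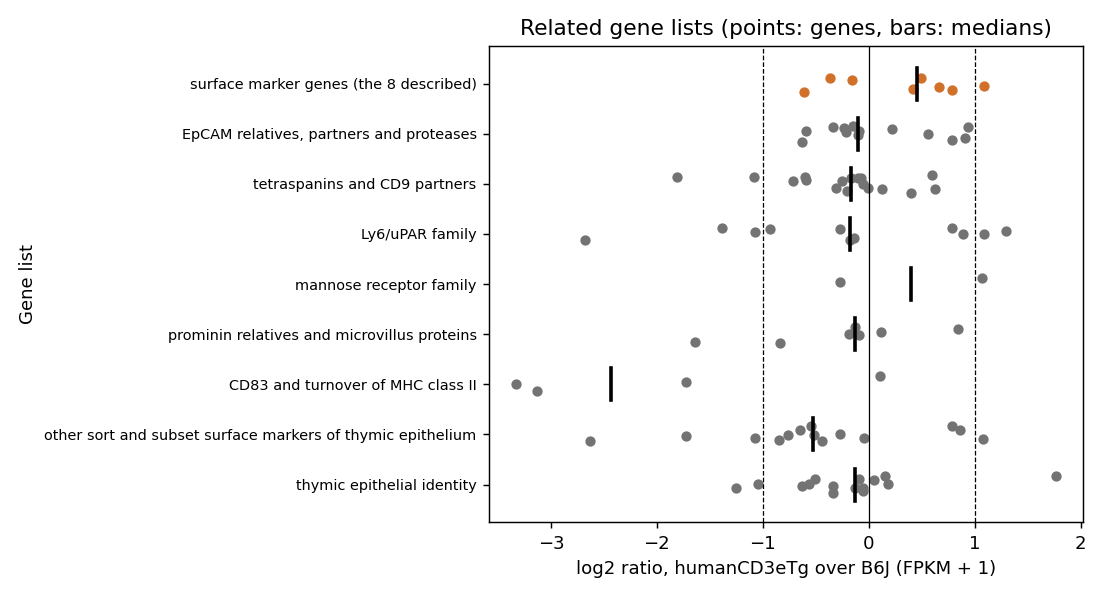
Log2 ratio of humanCD3eTg over B6J (FPKM + 1) for each gene used in the related lists (grey) and for the 8 surface marker genes (colour); bars are medians and dashed lines mark 2-fold. The 8 genes have a median of 0.45, the list of other sort and subset markers -0.53 and the list of CD83 and class II turnover -2.43.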

How the data were processed

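Each library has its own deposited table, which per the file headers holds a gene symbol and its FPKM as the authors computed it, for 25791 symbols. Per the submitters' processing notes, the tools were TopHat2 2.0.8, Bowtie2 2.1.0 and Cufflinks 2.1.1 and the build was mm9. Annotation, filters and use of strand: not given in the sources used here. RNA was extracted with TRIzol and libraries were made with a TruSeq kit, per the labels' protocols.

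Log2 ratios of humanCD3eTg over B6J were computed on FPKM + 1 (Python 3.11.15, pandas 2.3.3), so differences of low genes are understated. The filter kept genes averaging 1 FPKM or more over both libraries, and a value of at most 0.001 FPKM is called listed at 0. No test was run, because there is 1 library per group.

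Depth was estimated from the low FPKM values, which fall on steps worth 1 fragment, with GENCODE M21 transcript lengths less 210 bases. The step was searched between 0.04 and 0.09 FPKM over 1 kb, a range taken from earlier work on these data. Among 531 low genes of B6J 56.9% lay within 0.1 of a whole number of fragments, and among 368 of humanCD3eTg 60.1%, where an arbitrary step would give 20%. The depth is therefore approximate, and counts were not modelled. Intervals are 95% exact binomial intervals (scipy 1.17.1) on fragments estimated with the shortest RefSeq-matched transcript, and cover counting error only. Similar genes were searched with BLAST at 90% identity over at least 100 bases.

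The 8 genes, the lists and the rule for naming genes were chosen with earlier results of these data known. The rule names every one of the 8 genes, the sort gate genes and, per related list, up to 4 genes with the largest ratio and 2 with the highest mean. It also allows the related gene most like each of the 8 genes. Genes of the cell type lists and the genes similar in sequence are named as counts or checks need them. Some genes that the rule allows are not reported here. Alternatives were pseudocounts, filters, limits and scalings. Those rescaled to Epcam or to the thymic epithelial identity list, and that without a pseudocount, were chosen after seeing the data. The rescalings to Epcam and to the identity list were made on plain FPKM, without a pseudocount.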

Additional observations from a re-analysis of the deposited data

How the results depend on the processing

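No paired analysis was possible because each group has 1 library. The count of 1 gene at least 2-fold different became 0 with a pseudocount of 5 FPKM or a 4-fold limit and 4 with a 1.5-fold limit. It was 1 under the other alternatives run. Rescaled to Epcam in plain FPKM, the gene was Cd83 (log2 ratio -1.04) and not Ly6d (0.84). With that scale 16.6% of all genes used were called, 1968 lower and 273 higher, beside 6.57% in the main setting. The share was 2.44% with a pseudocount of 5 FPKM, 16.9% at the 1.5-fold limit, and 6.53% to 10.7% under the other scalings and pseudocounts. With a pseudocount of 5 FPKM Ly6d stood at 0.72. Under each alternative run 3 genes were lower, Ly75, Cd83 and Prom1, and the remaining genes were higher, with Epcam at 0 by construction where it set the scale. The ranges over the alternatives were 0.34 to 0.55 for Epcam, 0.08 to 0.63 for Cd24a, 0.38 to 0.93 for Cd9, 0.30 to 0.85 for Plet1 and 0.72 to 1.38 for Ly6d. They were -0.79 to -0.24 for Ly75, -1.04 to -0.49 for Cd83 and -0.65 to -0.02 for Prom1. Rescaling to Epcam moved the median of all genes used to -0.47 and the share of 2-fold calls that were higher from 32% to 12.2%, and rescaling to the identity list moved them to 0.08 and 43.7%. Of the list medians, that of the mannose receptor list was 0.40 over 2 genes used, Mrc2 (-0.28) and Cd302 (1.07). This median turned to -0.04 with no filter. That of CD83 and class II turnover lay between -3.24 and -0.93. With few genes in a list, such medians rest on 1 or 2 genes.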
